A study of Mus musculus with 18 samples.

Results

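The barrier nutrient transporters are 10 genes whose products carry glucose, amino acids, monocarboxylates, thyroid hormone, organic anions and iron across the endothelium of the brain: Slc2a1, Slc3a2, Slc7a5, Slc7a1, Slc16a1, Bsg, Slco1a4, Slco1c1, Slc22a8 and Tfrc. They were taken by symbol from a deposited table of 21638 genes, and all 10 were present and passed the filter on low counts. Their mRNA was measured in endothelial cells sorted from the cortex of adult mice after a sham operation or after middle cerebral artery occlusion (MCAO), a surgical model of ischaemic stroke. Slc3a2 and Bsg were called, which here means an adjusted p under 0.05 in the test across all genes: both were lower in occluded mice labelled with an endothelial deletion of Ezh2 than in occluded mice labelled wild type, and both calls were lost without single libraries and after adjustment for background reads or GC content. MCAO against sham gave no call for any of the 10 with edgeR as described in the methods, while some alternatives called Slc2a1 or Slc3a2.

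There were 6 groups of 3 libraries. Sham mice and MCAO mice, both labelled wild type (WT), each gave a group from the ipsilateral side (that of the occlusion) and a group from the contralateral side. The remaining groups were ipsilateral libraries from MCAO mice labelled Hdac2 ECKO and Ezh2 ECKO, where ECKO stands for an endothelial knockout. Those mice carried floxed Hdac2 (Hdac2lox/lox) or floxed Ezh2 (Ezh2lox/lox) with Cdh5CreERT2, a tamoxifen-inducible Cre recombinase driven from the promoter of the endothelial cadherin gene. All 18 libraries, sham and WT included, were labelled with tamoxifen at 75 mg/kg; the design text gives 5 doses from day 0 to day 4 for the deletion mice and a harvest on day 7 of stroke. No label says whether the WT mice carried Cre. The sort gate was CD31+, with CD41 and CD45 absent. The labels do not say that libraries of a group came from separate mice, so p-values measure the spread between libraries, nor whether a mouse gave both an ipsilateral and a contralateral library of 1 number.

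Brain capillaries are sealed by tight junctions, so polar nutrients reach the brain mainly through carrier proteins in the endothelial membranes. GLUT1 (Slc2a1) carries glucose down its gradient. The heavy chain CD98 (Slc3a2) pairs with the light chain LAT1 (Slc7a5) to exchange large neutral amino acids, CAT-1 (Slc7a1) carries cationic amino acids, and MCT1 (Slc16a1) carries lactate and ketone bodies with the help of its chaperone basigin (Bsg). The organic anion carriers are Oatp1a4 (Slco1a4), Oatp1c1 (Slco1c1, which takes thyroxine) and OAT3 (Slc22a8), and the transferrin receptor (Tfrc) takes up iron bound to transferrin.

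The levels below are CPM, counts scaled to a common library total and composition. Total counts ran from 25791401 to 57576255 per library. The summed level of 10 endothelial markers ran from 6695 to 24026 CPM, against at most 93.4 CPM for 7 microglial, 16.2 for 6 leukocyte, 171 for 7 pericyte and smooth muscle, 22.9 for 5 astrocyte, 19.2 for 5 neuronal, 15.3 for 5 fibroblast, 81.6 for 4 platelet, 185 for 5 oligodendrocyte and 455 for 5 choroid plexus markers. All 10 endothelial markers were above 0 in all 18 libraries. Cx3cr1, a microglial marker, was at 0 in 6 libraries. Red cell markers were abundant and uneven, with a sum of 70.9 to 297869 CPM. Neither targeted gene was called lower where it was labelled as deleted. Hdac2 stood at 76.8 ± 16.7 CPM (SD, n = 3) in the Hdac2 ECKO-labelled libraries and at 82.9 ± 14.0 in MCAO ipsilateral (edgeR adjusted p = 0.925). Ezh2 stood at 13.4 ± 5.75 CPM in the Ezh2 ECKO-labelled libraries and at 6.44 ± 1.77 in MCAO ipsilateral (edgeR adjusted p = 0.485). A count over a whole gene cannot show the loss of single floxed exons. These groups are therefore named by their labels throughout. In bulk libraries, fewer cells of a type and less RNA per cell cannot be told apart.

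The promoters of 4 genes that the results turn on are shown to let a reader compare their base composition and motifs. They are the bases just upstream of the transcription start in RefSeq (build GRCm38.p6), which held entries for 8 of the 10 genes, not for Slc7a5 and Bsg. The capitals mark a GC box (GGGCGG) or a CCAAT box (CCAAT), each searched on both strands, and the sequences run 5′ to 3′ on the gene's strand. Bases that lie in an annotated exon of the gene are left out, so the Slc2a1 sequence ends 34 bases short of the RefSeq start and the Slc3a2 sequence holds 63 bases. The positions are chr4:119108495-119108710 (plus strand) for Slc2a1, chr19:8713898-8713960 (minus strand) for Slc3a2, chr6:141856221-141856470 (minus strand) for Slco1a4 and chr16:32608646-32608895 (plus strand) for the first of 2 Tfrc entries. The Slc3a2 stretch lies inside the annotated gene (8706882 to 8723369), so it precedes an internal start and not the outermost annotated one.
Slc2a1: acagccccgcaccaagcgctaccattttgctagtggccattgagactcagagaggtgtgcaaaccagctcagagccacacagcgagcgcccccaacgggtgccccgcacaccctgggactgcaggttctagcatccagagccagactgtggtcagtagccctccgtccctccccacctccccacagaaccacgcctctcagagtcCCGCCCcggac
Slc3a2: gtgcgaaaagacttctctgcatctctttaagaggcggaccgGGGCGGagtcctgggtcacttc
Slco1a4: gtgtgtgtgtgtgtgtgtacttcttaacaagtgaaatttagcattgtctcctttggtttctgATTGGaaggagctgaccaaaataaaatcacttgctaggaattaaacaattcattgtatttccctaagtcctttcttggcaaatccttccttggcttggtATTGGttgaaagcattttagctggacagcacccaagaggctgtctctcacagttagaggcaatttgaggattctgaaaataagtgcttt
Tfrc: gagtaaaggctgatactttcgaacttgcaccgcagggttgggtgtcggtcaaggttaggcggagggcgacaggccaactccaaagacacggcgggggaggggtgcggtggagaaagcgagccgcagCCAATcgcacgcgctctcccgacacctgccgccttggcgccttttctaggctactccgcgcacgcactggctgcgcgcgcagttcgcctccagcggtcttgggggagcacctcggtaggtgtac

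Within the full window of 250 bases, Slc2a1 held 2 GC boxes and no CCAAT box, and Slc3a2, Slc16a1 and the first of 2 Slc7a1 entries held 1 GC box each. Slco1a4 held 2 CCAAT boxes and Slco1c1 and the first Tfrc entry 1 each, with no GC box, while the second Tfrc entry held 1 GC box. Slc22a8 held neither. The GC content of the window was 66.4% for Slc2a1, 76.4% for Slc16a1, 39.2% for Slco1a4 and 42.8% for Slco1c1. Over 32851 mouse promoters of the same length, 32.7% held a GC box and 33.8% a CCAAT box. The motif ACGTG, the core of the hypoxia response element, was also searched on both strands. It was found once each in the windows of Slc2a1, of Slc3a2 and of the second Tfrc entry. In that of Slc16a1 the 2 matches overlap at a single CACGTG, which reads the same on both strands. Of all promoters, 16.6% held at least 1 match. A match is a description of these letters only.

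Basigin mRNA was by far the most abundant of the 10 per kilobase of transcript. Averaged over the 18 libraries, levels per kilobase were 7170 CPM for Bsg, 494 for Slco1a4, 352 for Slco1c1, 315 for Slc2a1, 185 for Slc16a1, 106 for Tfrc, 83.0 for Slc3a2, 62.1 for Slc22a8, 59.3 for Slc7a5 and 30.6 for Slc7a1. Bsg took up to 2.91% of a library's counts. Bsg was above Slco1a4 in 18 of 18 libraries, and Slc2a1 was above Slc16a1 in 16. The lower neighbours were less distinct: Slc3a2 was above Slc22a8 in 11 of 18 libraries and Slc22a8 above Slc7a5 in 9. Across libraries Bsg also varied most, 13.3-fold from lowest to highest, and Slco1c1 least, 1.35-fold.

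**Figure D1:**
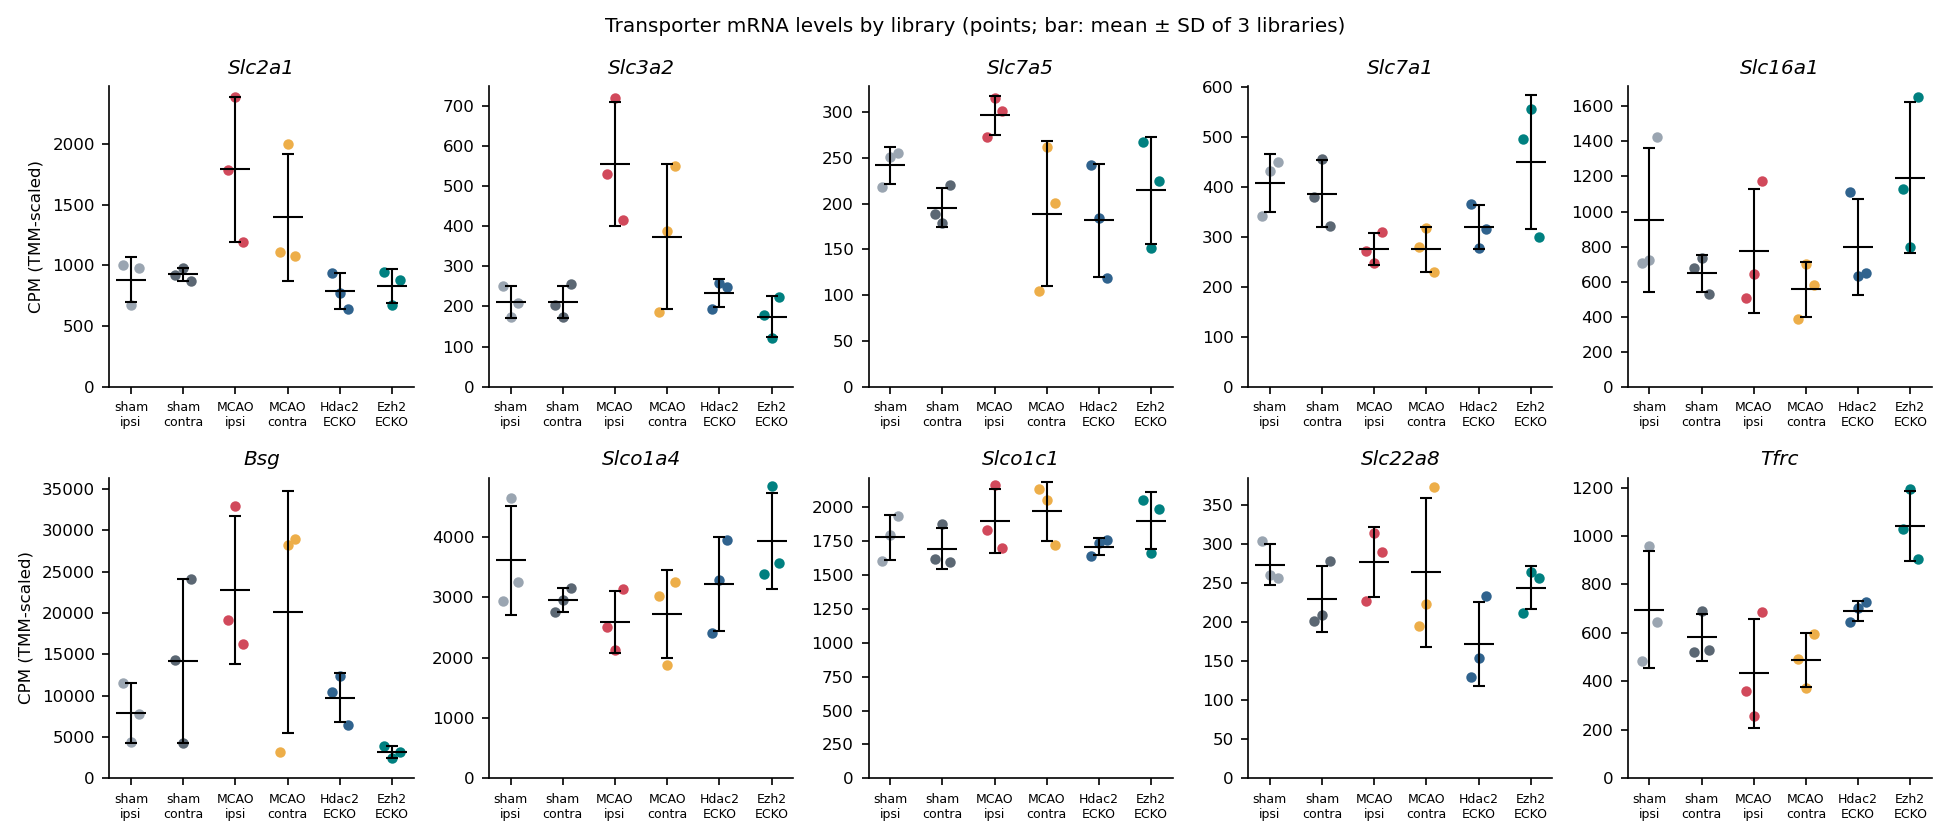
CPM of each of the 10 transporter genes (y axis, linear from 0) in the 6 groups (x axis). Points are the 3 libraries of a group and bars are mean ± SD; Slc2a1, Slc3a2 and Bsg stand highest in MCAO ipsilateral, while Slco1c1 stays between 1599 and 2163 CPM in all 18 libraries.

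The glucose carrier stood higher in every MCAO library of WT mice than in any sham library. Slc2a1 (chromosome 4, 119108711 to 119137983, plus strand) was at 1002, 674 and 975 CPM in the sham ipsilateral libraries 1 to 3 and at 924, 978 and 875 in sham contralateral. It was at 1788, 2391 and 1195 CPM in MCAO ipsilateral and at 1109, 2001 and 1082 in MCAO contralateral. It was at 941, 774 and 645 CPM in the Hdac2 ECKO-labelled libraries and at 944, 674 and 881 in the Ezh2 ECKO-labelled ones. All 6 MCAO libraries of WT mice lay above all 6 sham libraries, and all 6 libraries labelled with a deletion lay below the lowest MCAO library of WT mice. The highest sham library and the lowest MCAO library were 1002 and 1082 CPM. An annotated antisense gene, Gm12868, shares 105 exon bases (3.0%) with Slc2a1, and the strand setting of the counting is not given in the sources used here.

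For Slc2a1 the log2 fold change of MCAO over sham was 1.02 ± 0.33 (SE) on the ipsilateral side, a 2.03-fold difference that did not pass the test (edgeR adjusted p = 0.542). Over both sides together it was 0.81 ± 0.23 (edgeR adjusted p = 0.185), and 0.90 with an edgeR adjusted p of 0.0499 without MCAO contralateral replicate 1. Against the same MCAO ipsilateral libraries, the difference was −1.19 ± 0.33 in the Hdac2 ECKO-labelled libraries (edgeR adjusted p = 0.304) and −1.10 ± 0.33 in the Ezh2 ECKO-labelled ones (edgeR adjusted p = 0.0793). Without MCAO ipsilateral replicate 3, the last of these was −1.37 (edgeR adjusted p = 0.0468). These comparisons share the MCAO ipsilateral libraries, so a high level there enters all of them.

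Among the amino acid carriers the heavy chain differed most between groups. Slc3a2 (chromosome 19, 8706882 to 8723369, minus strand) was at 252, 173 and 209 CPM in sham ipsilateral and at 204, 174 and 255 in sham contralateral. It reached 529, 719 and 415 CPM in MCAO ipsilateral and 186, 388 and 548 in MCAO contralateral. It was at 193, 257 and 248 CPM in the Hdac2 ECKO-labelled libraries and at 179, 121 and 223 in the Ezh2 ECKO-labelled ones. All 3 MCAO ipsilateral libraries lay above every sham library and every library labelled with a deletion. MCAO contralateral replicate 1 was the exception among MCAO libraries and lay inside the sham range.

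Slc3a2 fell in the Ezh2 ECKO-labelled libraries against MCAO ipsilateral, by a log2 fold change of −1.67 ± 0.36 (edgeR adjusted p = 0.0324). This call was lost when any of 5 of the 6 libraries compared was left out: the edgeR adjusted p was 0.0924 and 0.188 without MCAO ipsilateral replicates 1 and 2, and 0.0552, 0.0946 and 0.0978 without Ezh2 ECKO replicates 1, 2 and 3. For MCAO over sham it was 1.39 ± 0.36, or 2.62-fold, on the ipsilateral side (edgeR adjusted p = 0.490). On the contralateral side it was 0.83 ± 0.36 (edgeR adjusted p = 0.920). Over both sides it was 1.11 ± 0.25 (edgeR adjusted p = 0.0803), with an adjusted p of 0.00795 without MCAO contralateral replicate 1 and 0.0488 without MCAO ipsilateral replicate 3. In the Hdac2 ECKO-labelled libraries it was −1.25 ± 0.36 against MCAO ipsilateral (edgeR adjusted p = 0.338). Of the 100-base windows of the Slc3a2 transcripts, 1.62% also occur in other genes.

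The light chain spanned a narrower range, 3.01-fold over the 18 libraries against 5.92-fold for the heavy chain. Slc7a5 (chromosome 8, 121881150 to 121907694, minus strand) was at 219, 251 and 256 CPM in sham ipsilateral and at 273, 315 and 301 in MCAO ipsilateral, without overlap. In MCAO contralateral it was at 105, 262 and 201 CPM and in sham contralateral at 188, 179 and 220.3. It was at 242, 185 and 119 CPM in the Hdac2 ECKO-labelled libraries and at 267, 152 and 225 in the Ezh2 ECKO-labelled ones, in both cases below all 3 MCAO ipsilateral libraries. The difference of the Hdac2 ECKO-labelled libraries from MCAO ipsilateral was −0.71 ± 0.34 on the log2 scale (edgeR adjusted p = 0.505). The ratio of Slc3a2 to Slc7a5 per kilobase was 0.930 ± 0.251 (SD, n = 3) in sham ipsilateral, 1.96 ± 0.478 in MCAO ipsilateral, 2.10 ± 0.684 in MCAO contralateral and 0.861 ± 0.168 in the Ezh2 ECKO-labelled ones.

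Slc7a1 (chromosome 5, 148327410 to 148399904, minus strand) was lower, not higher, in the MCAO libraries of WT mice. It was at 342, 432 and 451 CPM in sham ipsilateral and 380.4, 457 and 323 in sham contralateral, against 272, 248 and 311 in MCAO ipsilateral and 279, 319 and 229 in MCAO contralateral. All 6 sham libraries lay above all 6 MCAO libraries, by a narrow margin of 323 against 319 CPM. The log2 difference over both sides was −0.52 ± 0.20 (edgeR adjusted p = 0.398). The Hdac2 ECKO-labelled libraries were at 366, 278 and 317 CPM and the Ezh2 ECKO-labelled ones at 496, 556 and 299.6, the latter a log2 difference of 0.70 ± 0.29 from MCAO ipsilateral (edgeR adjusted p = 0.190).

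The chaperone of monocarboxylate transport varied more than its partner. Bsg (chromosome 10, 79704491 to 79711969, plus strand) was at 11546, 4377 and 7837 CPM in sham ipsilateral and at 14378, 4253 and 24119 in sham contralateral. It was at 19166, 32977 and 16263 CPM in MCAO ipsilateral and at 3188, 28266 and 28919.7 in MCAO contralateral. It was at 10444, 12384 and 6476 CPM in the Hdac2 ECKO-labelled libraries and at 3875, 2483 and 3156 in the Ezh2 ECKO-labelled ones. The Ezh2 ECKO-labelled libraries lay below every other library except MCAO contralateral replicate 1. The spread inside the sham contralateral and MCAO contralateral groups was as wide as the distance between groups.

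Bsg fell in the Ezh2 ECKO-labelled libraries against MCAO ipsilateral by a log2 fold change of −2.85 ± 0.66 (edgeR adjusted p = 0.0379), from 22802 to 3172 CPM on average. Leaving out any of 5 of the 6 libraries ended the call: the edgeR adjusted p was 0.0924 and 0.191 without MCAO ipsilateral replicates 1 and 2, and 0.0595, 0.109 and 0.133 without Ezh2 ECKO replicates 1, 2 and 3. The Ezh2 ECKO-labelled libraries also lay below sham ipsilateral, by −1.32 ± 0.62 (edgeR adjusted p = 0.758), and below the Hdac2 ECKO-labelled ones, which were higher by 1.62 ± 0.63 (edgeR adjusted p = 0.326). MCAO over sham was 1.53 ± 0.63 on the ipsilateral side (edgeR adjusted p = 0.645) and 1.01 ± 0.44 over both sides (edgeR adjusted p = 0.475).

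Slc16a1 (chromosome 3, 104638668 to 104658462, plus strand), the carrier that basigin escorts, had overlapping libraries in every comparison. It was at 705, 724 and 1425 CPM in sham ipsilateral, 679.8, 736 and 531 in sham contralateral, 507, 645 and 1177 in MCAO ipsilateral and 388, 699 and 582 in MCAO contralateral. The Hdac2 ECKO-labelled libraries were at 1114, 629.8 and 649.5 CPM and the Ezh2 ECKO-labelled ones at 1128, 798 and 1653. The ratio of Bsg to Slc16a1 per kilobase was 22.7 ± 14.9 on the ipsilateral and 58.8 ± 48.8 on the contralateral side of sham mice. It was 83.6 ± 46.2 on the ipsilateral and 80.0 ± 53.1 on the contralateral side of MCAO mice, 31.7 ± 14.1 in the Hdac2 ECKO-labelled libraries and 6.88 ± 1.96 in the Ezh2 ECKO-labelled libraries. Across the 18 libraries the log2 levels of the pair had a Pearson correlation of −0.29, and 0.17 once group means were removed.

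The organic anion carriers differed less between groups. Slco1a4 (chromosome 6, 141805440 to 141856199, minus strand) was at 2931, 4634 and 3257 CPM in sham ipsilateral, 2761, 2947 and 3155 in sham contralateral, 2511, 2118 and 3139 in MCAO ipsilateral and 3016, 1884 and 3253 in MCAO contralateral. It was at 2402, 3290.1 and 3950.5 CPM in the Hdac2 ECKO-labelled libraries and at 3385, 4834 and 3571 in the Ezh2 ECKO-labelled ones. Only the comparison of the Ezh2 ECKO-labelled libraries with MCAO ipsilateral had no overlap, with 3385 against 3139 CPM at the nearest pair, and it did not reach an unadjusted p of 0.05. Of its 100-base windows, 1.10% occur in its relatives Slco1a1 and Slco1a5.

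Slco1c1 (chromosome 6, 141524368 to 141570177, plus strand) was the steadiest of the 10. Its group means ran from 1697 ± 154 CPM in sham contralateral through 1712 ± 64.9 in the Hdac2 ECKO-labelled libraries, 1779 ± 164 in sham ipsilateral, 1899 ± 238 in MCAO ipsilateral and 1904 ± 209.7 in the Ezh2 ECKO-labelled ones to 1971 ± 219 in MCAO contralateral (SD, n = 3). Neighbours in that order differed by less than the larger of their SDs. Slc22a8 (chromosome 19, 8591254 to 8611835, plus strand) was at 303, 259.8 and 257 CPM in sham ipsilateral, 227, 313 and 289.5 in MCAO ipsilateral, 129, 153 and 232 in the Hdac2 ECKO-labelled libraries and 212, 264 and 256 in the Ezh2 ECKO-labelled ones. The Hdac2 ECKO-labelled libraries lay below sham ipsilateral without overlap, by −0.67 ± 0.31 on the log2 scale (edgeR adjusted p = 0.663), and differed from MCAO ipsilateral by −0.69 ± 0.31 (edgeR adjusted p = 0.484).

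Slc22a8 is also transcribed in the choroid plexus, so its levels were set beside 5 markers of that epithelium. In sham contralateral it was at 201, 208 and 278 CPM and in MCAO contralateral at 194, 223 and 372. The choroid plexus markers summed to 455 CPM in MCAO contralateral replicate 2, where Slc22a8 was at 223, and to 0.428 in replicate 3, where it was at 372. Of the 5 markers, Folr1 was at 0 in 9 of 18 libraries, Clic6 in 6, Kcnj13 in 3, Kl in 2 and Ttr in 0, with Ttr reaching 445 CPM.

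The iron receptor was highest in the Ezh2 ECKO-labelled libraries. Tfrc (chromosome 16, 32608920 to 32632794, plus strand) was at 484, 960.5 and 645 CPM in sham ipsilateral and at 522, 693 and 529.8 in sham contralateral. It was at 359, 256 and 685 CPM in MCAO ipsilateral and at 490.5, 374 and 597 in MCAO contralateral. It was at 645, 701 and 727 CPM in the Hdac2 ECKO-labelled libraries and at 1031, 1192 and 905 in the Ezh2 ECKO-labelled ones. All 3 Ezh2 ECKO-labelled libraries lay above every other library except sham ipsilateral replicate 2. Their log2 difference from MCAO ipsilateral was 1.27 ± 0.35, which missed the threshold (edgeR adjusted p = 0.0618) and passed it without MCAO ipsilateral replicate 3, at 1.72 (edgeR adjusted p = 0.0235).

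Ftl1, the light chain of the iron store ferritin, had its lowest library in the group where Tfrc had its highest. These were Ezh2 ECKO replicate 3 for Ftl1 and replicate 2 for Tfrc. Ftl1 was the only one of 52 other transporters, iron genes and uptake receptors tested (of 53 listed) that was called in any comparison. Ftl1 fell from 2746 to 439 CPM on average between MCAO ipsilateral and the Ezh2 ECKO-labelled libraries, by a log2 fold change of −2.64 ± 0.54 (edgeR adjusted p = 0.0291). In that comparison 1.46% of all genes were called, 1.23% lower, so 1 call among 52 genes is near the share of all genes. That call was also lost with the background level as a covariate, at −1.76 (edgeR adjusted p = 0.114). It was lost without MCAO ipsilateral replicate 1 (edgeR adjusted p = 0.0784), MCAO ipsilateral replicate 2 (0.171), Ezh2 ECKO replicate 2 (0.0760) or Ezh2 ECKO replicate 3 (0.112). The ratio of Tfrc to Ftl1 per kilobase was 0.189 ± 0.126 in sham ipsilateral, 0.0381 ± 0.0269 in MCAO ipsilateral, 0.102 ± 0.0260 in the Hdac2 ECKO-labelled libraries and 0.518 ± 0.0766 in the Ezh2 ECKO-labelled ones. Across the 18 libraries the log2 levels of Tfrc and Ftl1 had a Pearson correlation of −0.76, and −0.42 once group means were removed. For Tfrc and the ferritin heavy chain Fth1 these were −0.57 and −0.28. Ftl1 was closer to Bsg, at 0.97 and 0.98. Ferritin genes have processed copies in the genome, so the Ftl1 count is uncertain.

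When MCAO was compared with sham on the ipsilateral side, 0 of the 10 transporters were called with edgeR, as were 0% of the 17094 genes tested. An unadjusted p under 0.05 was reached by 3 of 10 (Slc2a1, Slc3a2 and Bsg, all higher) against 7.08% of all genes in either direction and 4.26% higher. The groups did not overlap for 5 of 10, Slc2a1, Slc3a2, Slc7a5 and Bsg higher and Slc7a1 lower, against 27.7% of all genes in either direction and 13.3% higher. The median log2 difference of the 10 was 0.06, and that of all genes −0.09. DESeq2, another count model, called Slc3a2 alone among the 10 (adjusted p = 0.0374).

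On the contralateral side 0 of 10 were called with edgeR (0% of all genes), 1 of 10 (Slc3a2) reached an unadjusted p under 0.05 (4.41% of all genes), and DESeq2 called 0. The groups did not overlap for 2 of 10, Slc2a1 higher and Slc7a1 lower (9.65% of all genes). Over both sides together, a comparison added after earlier results were known, 0 of 10 were called (0.152% of all genes), and 4 of 10 reached an unadjusted p under 0.05 (9.09%). DESeq2 called Slc2a1 and Slc3a2 there, and edgeR called Slc3a2 when libraries were scaled by RLE, a median of ratios, in place of TMM, a trimmed mean of ratios. The 6 and 6 libraries did not overlap for Slc2a1 and Slc7a1, a state shared by 1.43% of all genes. Every test over both sides, here and elsewhere in the text, took the libraries of the sides as independent. The labels do not say whether the sides share mice.

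Between the sides, MCAO ipsilateral against MCAO contralateral gave 0 calls among the 10 (0% of all genes) and none at an unadjusted p under 0.05 (3.08%), with edgeR, and 0 with DESeq2. Only Slc7a5 did not overlap there (5.36%). Sham ipsilateral against sham contralateral also gave 0 calls with edgeR (0%) and with DESeq2, 0 at an unadjusted p under 0.05 (1.85%) and no transporter without overlap (15.4%). The interaction of side and occlusion, also added after earlier results were known, gave 0 calls (0%) and 0 of 10 at an unadjusted p under 0.05 (3.38%), so no difference between the sides in the response to occlusion was detectable with 3 libraries a group.

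**Figure D2:**
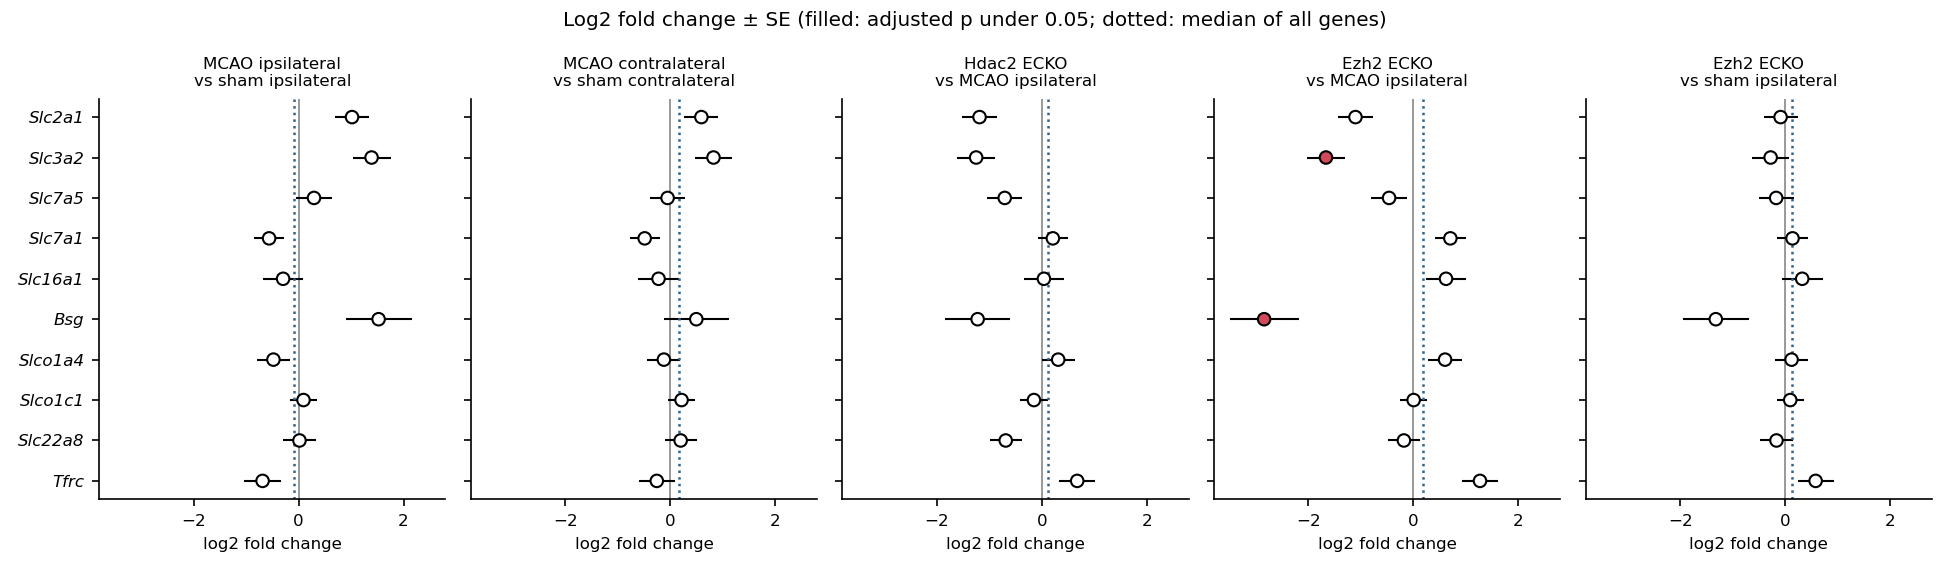
Log2 fold change ± SE (x axis) of the 10 transporter genes (rows) in 5 comparisons (panels); filled points have an edgeR adjusted p under 0.05 and the dotted line is the median of all genes tested. Slc3a2 (−1.67) and Bsg (−2.85) in the Ezh2 ECKO-labelled libraries against MCAO ipsilateral are the only filled points.

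The libraries labelled with a deletion were compared with those of WT mice on the occluded side. In the Ezh2 ECKO-labelled libraries, 2 of 10 transporters were called, Slc3a2 and Bsg, both lower, against 1.46% of all genes in either direction and 1.23% lower (250 genes, 39 higher and 211 lower). With RLE scaling 368 genes were called, 119 higher and 249 lower, and that scaling moved the median of all genes from 0.17 to 0.36 on the log2 scale. Relative to that median, Slc3a2 stood at −1.84 and −1.86 under TMM and RLE scaling, Bsg at −3.02 and −3.04, and Tfrc at 1.10 and 1.11. An unadjusted p under 0.05 was reached by 5 of 10 (19.2% of all genes, 10.7% lower), Tfrc and Slc7a1 higher and Slc2a1, Slc3a2 and Bsg lower. The groups did not overlap for 6 of 10 (29% of all genes, 15.3% lower), Slco1a4 and Tfrc higher and Slc2a1, Slc3a2, Slc7a5 and Bsg lower. The median of the 10 was −0.09 and that of all genes 0.17. DESeq2 called 5 of 10 there, those with an unadjusted p under 0.05.

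In the Hdac2 ECKO-labelled libraries, 0 of 10 were called with edgeR (0.0117% of all genes, 2 genes), and DESeq2 called Slc2a1. An unadjusted p under 0.05 was reached by 4 of 10, Slc2a1, Slc3a2, Slc7a5 and Slc22a8, all lower (9.85% of all genes, 5.24% lower). The groups did not overlap for 4 of 10, Slc2a1, Slc3a2, Slc7a5 and Bsg, all lower (19.9%, 10.3% lower). The median of the 10 was −0.42 and that of all genes 0.11. The 4 transporters without overlap here are also among those above sham in MCAO ipsilateral, and the 3 comparisons use the same MCAO ipsilateral libraries.

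Against sham ipsilateral, where the shared MCAO libraries do not enter, the Hdac2 ECKO-labelled libraries gave 0 calls (0%) and 1 of 10 at an unadjusted p under 0.05 (Slc22a8, 7.14% of all genes), also the only one without overlap (15.3%). The Ezh2 ECKO-labelled libraries gave 0 calls (0.041%) and 1 of 10 at an unadjusted p under 0.05 (Bsg, lower, 6.52%), again the only one without overlap (13.7%). Slc2a1 was at 884 ± 182 CPM in sham ipsilateral, 787 ± 149 in the Hdac2 ECKO-labelled libraries and 833 ± 141 in the Ezh2 ECKO-labelled ones, so the 3 groups overlapped. The direct comparison of the 2 groups labelled with a deletion gave 0 calls among the 10 (0.123%) and 1 at an unadjusted p under 0.05 (Bsg, 11.2%). It gave 2 without overlap, Bsg higher and Tfrc lower in the Hdac2 ECKO-labelled libraries (12.1%). DESeq2 called 0 of 10 in these 3 comparisons.

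The other transporters were counted from a list grouped by cargo. In MCAO ipsilateral against sham ipsilateral, 0 of 52 were called (0% of all genes). There 4 were higher and 2 lower at an unadjusted p under 0.05 (7.08% of all genes), and 18 did not overlap (27.7% of all genes). In the Hdac2 ECKO-labelled libraries against MCAO ipsilateral, 0 were called (0.0117%). There 3 were higher and 6 lower at an unadjusted p under 0.05 (9.85%), and 14 did not overlap (19.9%). In the Ezh2 ECKO-labelled ones, Ftl1 alone was called (1.46%). There 5 were higher and 6 lower at an unadjusted p under 0.05 (19.2%), and 14 did not overlap (29%). Among 14 amino acid carriers besides the members, 0 were called in any of these.

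Levels of some transporters were linked from library to library, and the pairs named are a few of 45. Others were near 0, such as Slc7a5 with Slc7a1 (−0.04) and Slco1c1 with Slc22a8 (0.02). On the log2 scale Slc2a1 had a Pearson correlation of −0.85 with Slco1a4 and −0.84 with Tfrc, and Slco1a4 and Tfrc correlated at 0.84. With group means removed these were −0.95, −0.83 and 0.77. Slc3a2 and Bsg correlated at 0.83, and at 0.82 with group means removed. Slc3a2 and its partner Slc7a5 correlated at 0.48 (0.51 with group means removed), and Slc2a1 and Slc3a2 at 0.77 (0.39). These are descriptions over 18 libraries that share depth and library composition. The genes whose log2 level was most like a member, among 7814 genes of at least 10 CPM on average, were Ccnd3 for Slc2a1 (r = 0.93), Xbp1 for Slc3a2 (0.95), Tmem199 for Slc7a5 (0.86), Tab2 for Slc7a1 (0.88), Fpgs for Slc16a1 (0.86), Atp6v0c for Bsg (0.98), Zfp820 for Slco1a4 (0.90), Sash1 for Slco1c1 (0.79), Stap2 for Slc22a8 (0.82) and Prom1 for Tfrc (0.92).

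**Figure D3:**
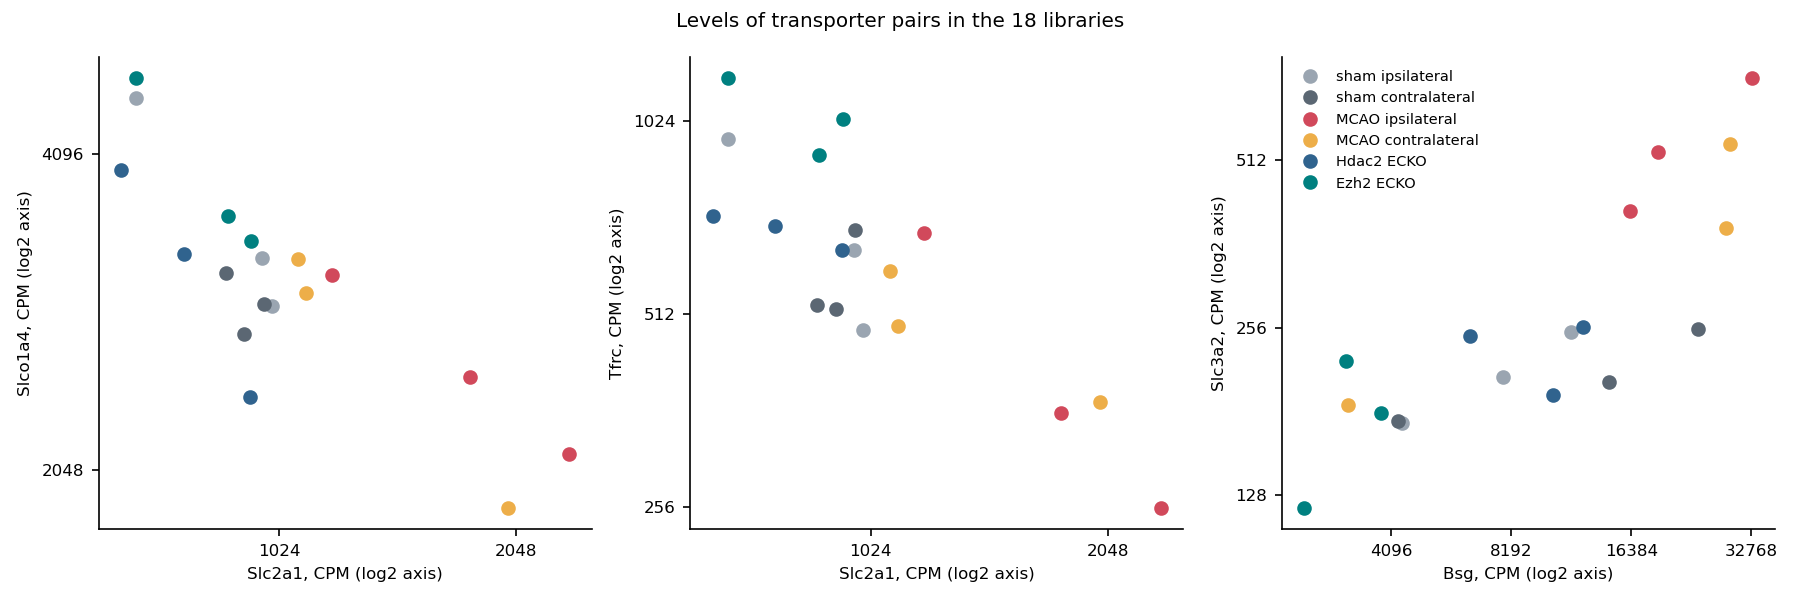
CPM of 3 pairs of transporter genes in the 18 libraries (both axes log2, 1 point a library, coloured by group). Slco1a4 and Tfrc fall as Slc2a1 rises from library to library (r = −0.85 and −0.84), and Slc3a2 rises with Bsg (r = 0.83).

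Several properties of the libraries moved with these levels. The members' transcripts ranged in GC content from 39.8% (Tfrc), 40.3% (Slco1a4), 42.9% (Slc16a1) and 43.1% (Slco1c1) through 50.3% (Slc22a8) and 51.3% (Slc7a1) to 53.4% (Slc3a2), 54.0% (Slc2a1), 56.3% (Slc7a5) and 57.6% (Bsg), around a median of 48.4% for the genes tested. In each library, every gene's deviation from its own mean level over all libraries was set against its GC content. The Spearman coefficient of this trend lay between 0.294 and 0.375 for the MCAO ipsilateral libraries. It lay between −0.394 and −0.0672 for the Ezh2 ECKO-labelled libraries and between −0.231 and 0.141 for the Hdac2 ECKO-labelled ones. Sham ipsilateral libraries had values between −0.343 and 0.390. The trend is relative to the other libraries and does not rank genes inside a library. Across libraries this trend correlated at 0.89 with Bsg, 0.74 with Slc3a2, 0.65 with Slc2a1, 0.60 with Slc7a5, 0.23 with Slc22a8, −0.07 with Slc16a1, −0.19 with Slco1c1, −0.46 with Slc7a1, −0.69 with Tfrc and −0.72 with Slco1a4. Slc7a1 had a GC content above the median and a negative correlation, and Slc16a1 and Slco1c1, of low GC content, were close to 0. With the trend removed from every library, Slc3a2 stood at −1.28 (edgeR adjusted p = 0.0631) and Bsg at −2.23 (edgeR adjusted p = 0.0604) in the Ezh2 ECKO-labelled libraries against MCAO ipsilateral, and neither was called. Slc3a2 in MCAO over sham ipsilateral stood at 1.26 with the trend removed.

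**Figure D4:**
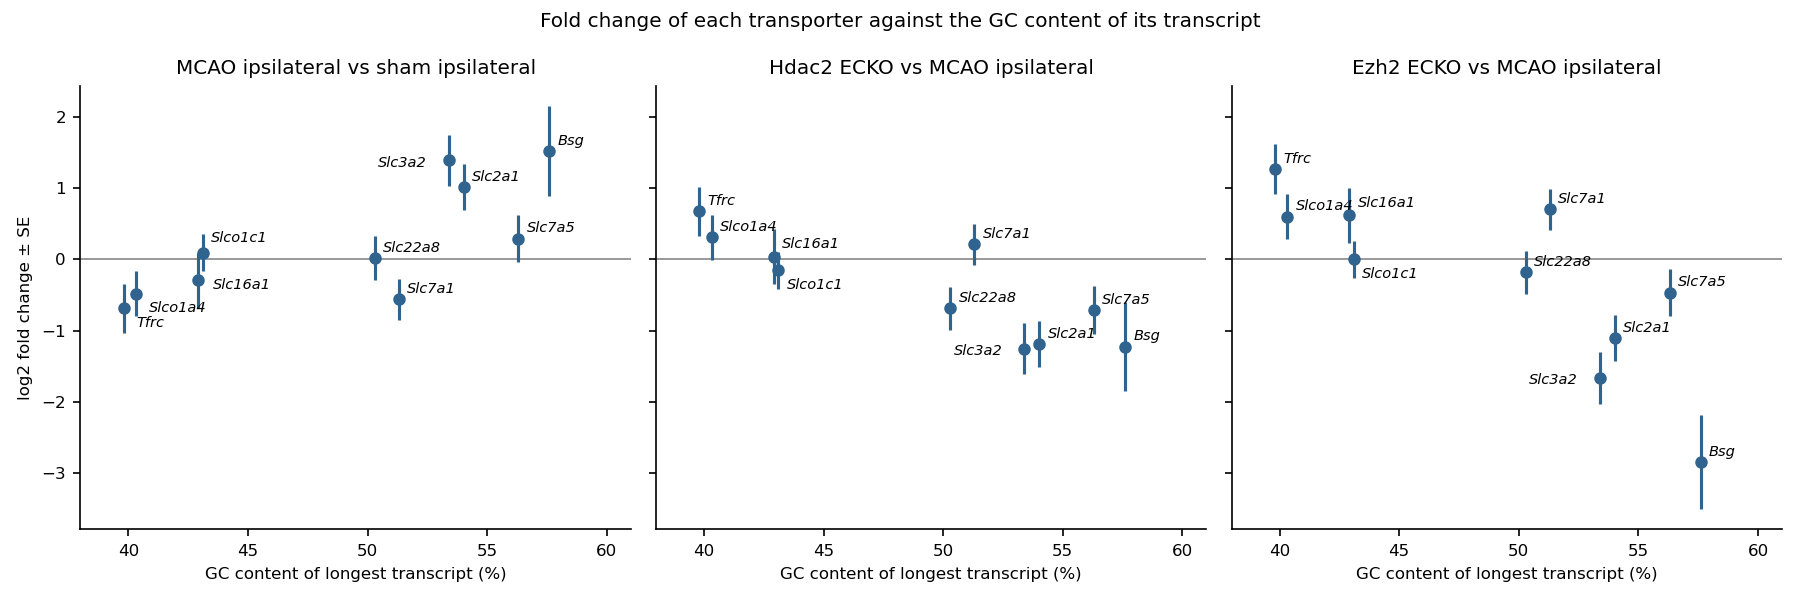
Log2 fold change ± SE (y axis) of the 10 transporter genes against the GC content of the longest transcript (x axis, percent) in 3 comparisons that share the MCAO ipsilateral libraries. Genes of high GC content (Bsg 57.6%, Slc2a1 54.0%, Slc3a2 53.4%) lie above 0 for MCAO over sham. They lie below 0 for both groups labelled with a deletion. Tfrc (39.8%) lies on the other side of 0 in each panel, as does Slc7a1 (51.3%), while Slco1c1 (43.1%) lies within 0.15 of 0.

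Background reads also differed between libraries, measured as the summed level of 1466 olfactory and vomeronasal receptor genes, which endothelium is not known to use. It was 154 to 296 CPM in MCAO ipsilateral, 268 to 2083 in the Ezh2 ECKO-labelled libraries, 198 to 639 in the Hdac2 ECKO-labelled ones, 285 to 716 in sham ipsilateral and 1889 in MCAO contralateral replicate 1. Its log2 level correlated across libraries at −0.82 with Bsg, −0.66 with Slc3a2, −0.66 with Slc7a5, −0.53 with Slc2a1, −0.08 with Slc22a8, −0.03 with Slc16a1, 0.10 with Slco1c1, 0.39 with Slc7a1, 0.53 with Tfrc and 0.68 with Slco1a4. With that level as a covariate, Slc3a2 stood at −1.16 (edgeR adjusted p = 0.112) and Bsg at −1.54 (edgeR adjusted p = 0.176) in the Ezh2 ECKO-labelled libraries against MCAO ipsilateral. Slc3a2 over both sides of MCAO against sham stood at 0.97 with the covariate and passed the threshold (edgeR adjusted p = 0.0213).

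**Figure D5:**
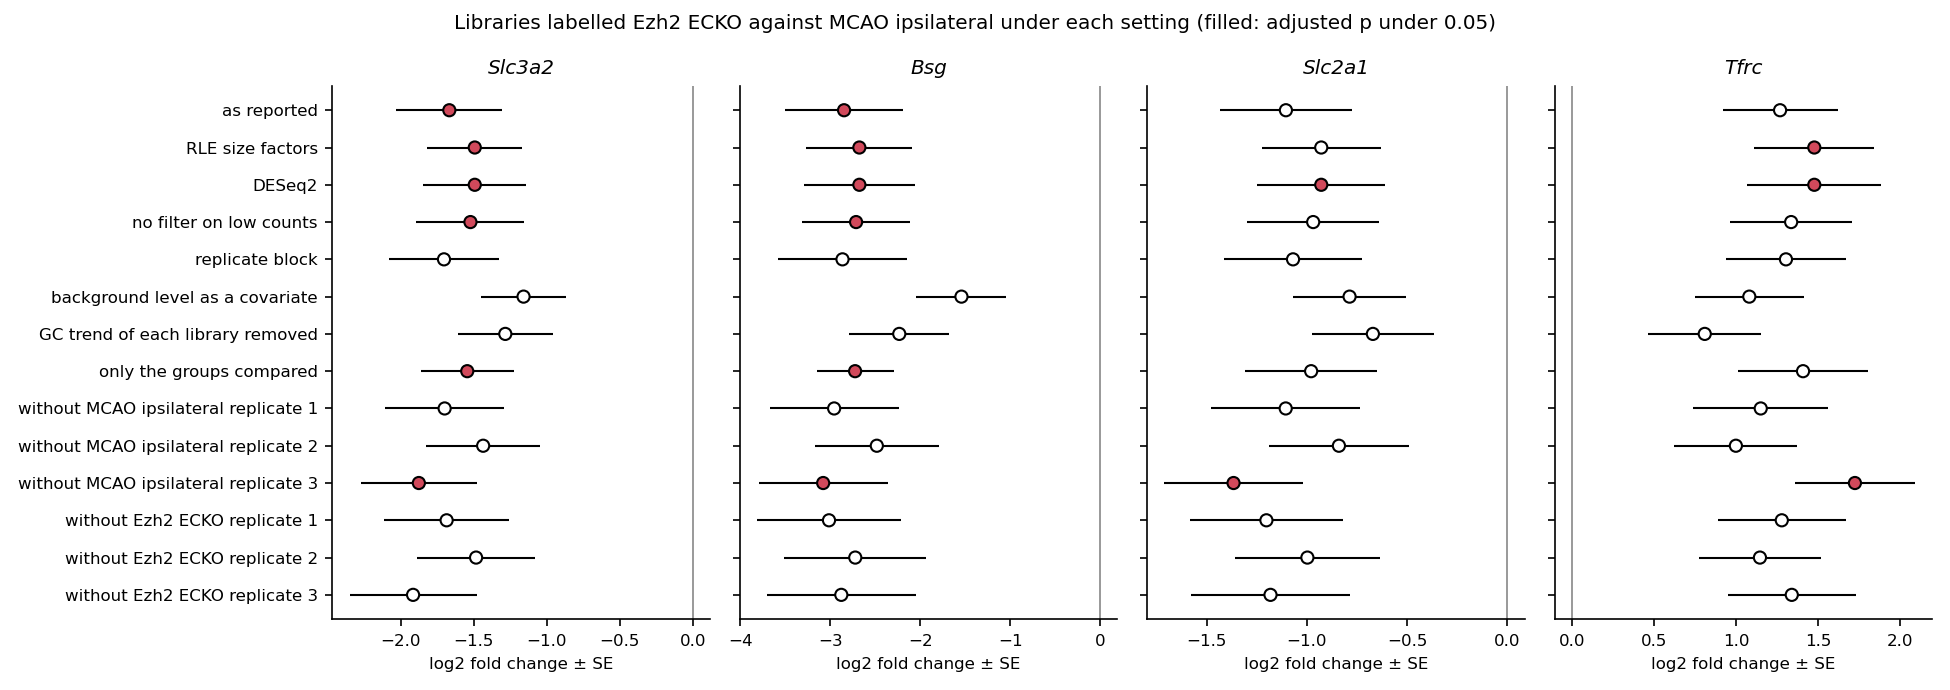
Log2 fold change ± SE (x axis) of Slc3a2, Bsg, Slc2a1 and Tfrc in the Ezh2 ECKO-labelled libraries against MCAO ipsilateral under each setting (rows); filled points have an adjusted p under 0.05. No point crosses 0, and Slc3a2 and Bsg are open points with the background covariate (−1.16 and −1.54) and with the GC trend removed (−1.28 and −2.23).

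Markers of blood and other cells differed as well. The 7 red cell markers summed to 38263 to 65445 CPM in MCAO ipsilateral, 49314 to 297869 in the Hdac2 ECKO-labelled libraries and 70.9 to 671 in the Ezh2 ECKO-labelled ones, where 5 of 7 were called lower (Hba-a1, Hba-a2, Hbb-bs, Hbb-bt and Alas2). Summed endothelial markers were 9558 to 12278 CPM in sham ipsilateral, 15033 to 24026 in MCAO ipsilateral, 10234 to 14899 in the Hdac2 ECKO-labelled libraries and 6695 to 10497 in the Ezh2 ECKO-labelled ones. Ly6c1 reached 17720.5 CPM, against at most 2844 for any other of the 10 markers, so the sums lean on it. In MCAO ipsilateral against sham ipsilateral, 4 of 10 endothelial markers were higher and 6 lower, with a median log2 difference of −0.24. In the Ezh2 ECKO-labelled libraries against MCAO ipsilateral, 5 of 10 were higher and 5 lower, with Ly6c1 called lower. Microglial markers summed to 34.1 to 43.6 CPM in sham ipsilateral and 78.6 to 86.2 in MCAO ipsilateral, and pericyte and smooth muscle markers to 96.6 to 147 and 36.7 to 88.1, with none of the 6 microglial and 7 mural markers tested called (edgeR). The part of red cell RNA, endothelial yield, GC content, background and other cells in the transporter results was not tested beyond the values given.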

How the data were processed

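RNA from sorted cortical endothelial cells was amplified with SMART-Seq v4 PLUS and sequenced as paired ends on a NovaSeq X Plus, per the labels' protocols. The authors deposited 1 table of whole-number counts per gene, per the file headers with gene coordinates and feature lengths. FastQC, cutadapt, STAR, featureCounts, DESeq2 and mm10 are named in the submitters' processing notes. Their versions, the strand setting and the order of steps are not given in the sources used here. The deposited table is named normalized, but its values are whole numbers with different totals per column (25791401 to 57576255), so they were used as counts. Among the low values above 0, 77.3% to 89.4% per library were even, so a value may not stand for a single fragment. The reason was not tested.

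Levels are CPM after TMM scaling. Of 21638 genes, the 17094 that reached 10 counts in 3 or more libraries were tested in 1 fit of 6 group means over 18 libraries with edgeR 4.0.16 (quasi-likelihood, R 4.3.3), with Benjamini-Hochberg adjustment over all genes tested and a threshold of 0.05. Correlations used log2 CPM with a pseudocount of 0.5. A count of 0 allows up to 3 counts, which covers counting error only and takes each value as a count of single fragments. The test was checked on simulated data. Alternatives were RLE scaling, DESeq2 1.42.0, no filter, a replicate block, the background level as a covariate, only the groups compared, the GC trend removed (chosen after seeing the data) and leaving out each library. Sequences came from RefSeq. The genes named are the 10 members, the likest gene of each (the first of 3 computed), other transporters that were called, and Hdac2, Ezh2 and cell type markers as checks. Members and lists were chosen with earlier results of these data known.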

Additional observations from a re-analysis of the deposited data

How the results depend on the processing

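The 21 fold changes followed were those of members with an unadjusted edgeR p under 0.05 as first tested, and that of Ftl1. Under 7 alternatives and with each library left out, 0 of 297 values reversed in sign, which that choice made likely. Smaller fold changes were not followed. With RLE scaling, that of Slc22a8 in the Ezh2 ECKO-labelled libraries against MCAO ipsilateral did reverse, from −0.18 to 0.03. The count of transporters called was less stable. In the Ezh2 ECKO-labelled libraries against MCAO ipsilateral it was 2, but 5 with DESeq2 (Slc2a1, Slc3a2, Slc7a1, Bsg and Tfrc), 0 with the background covariate and 0 with the GC trend removed, and 0 to 4 with a library left out (4 without MCAO ipsilateral replicate 3). It went from 0 to 1 with DESeq2 for MCAO against sham ipsilateral and for the Hdac2 ECKO-labelled libraries against MCAO ipsilateral. Over both sides of MCAO against sham it went from 0 to 1 with RLE scaling, 2 with DESeq2, 1 with the background covariate and 0 to 2 with a library left out. Elsewhere leaving out a library gave 0 to 0. Adjusted p in the Ezh2 ECKO-labelled libraries ranged over left-out fits with edgeR from 0.0238 to 0.188 for Slc3a2 and from 0.0351 to 0.191 for Bsg.

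Replicate numbers were not taken as pairs, since no comparison had every same-number correlation of deviations over 0.1. Between the sides these were 0.288, 0.382 and 0.036 for MCAO and 0.372, 0.349 and −0.125 for sham, and whether the sides share mice remains unknown. With the replicate block 0 transporters were called in the Ezh2 ECKO-labelled libraries against MCAO ipsilateral (Slc3a2 −1.70, edgeR adjusted p = 0.0558; Bsg −2.86, 0.0706), Ftl1 was not called either (0.0558), and 12 genes of all tested in place of 250.

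Over all genes that comparison gave 1642 calls with DESeq2, 13 with the background covariate, 70 with the GC trend removed, 485 with only the groups compared and 5 to 298 with a library left out. For MCAO against sham ipsilateral DESeq2 called 69 genes where edgeR called 0, and for the Hdac2 ECKO-labelled libraries against MCAO ipsilateral 244 in place of 2. With 3 libraries a group and a common biological coefficient of variation of 0.774, small differences were not detectable.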
